A study of Mus musculus with 92 samples.

Results

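The COP9 signalosome genes are the 9 mouse genes Gps1, Cops2, Cops3, Cops4, Cops5, Cops6, Cops7a, Cops7b and Cops8, taken by symbol from 56953 gene identifiers in the deposited tables. All 9 passed the filter on low counts in both assays. They were followed in B6 mouse embryonic stem cells in which GABPA, GABPB1, or GABPB1 together with GABPB2 carried a dTAG degron on the endogenous alleles (labelled dTAG/dTAG). GABPA is an ETS family DNA-binding protein, and GABPB1 and GABPB2 are its non-DNA-binding partner subunits. The samples used were 12 RNA-seq and 14 SLAM-seq libraries in 13 groups of 2, described in the labels as biological duplicates, and the other 66 samples were not used here.

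RNA-seq covered 12 h of 500 nM dTAG-13 and 12 h of DMSO in the GABPA line, the GABPB1 line and the GABPB1/GABPB2 line. SLAM-seq, which counts newly made RNA as reads with T-to-C conversions after 4-thiouridine labelling, covered 1, 2, 4 and 12 h of dTAG-13 in the GABPA line, with DMSO groups at 1 h, at 2 h (titled 2-4h and used for both 2 h and 4 h) and at 12 h. All groups shared serum medium with LIF and the inhibitors PD0325901 and CHIR99021. dTAG-13 joins the tagged protein to cereblon, a substrate receptor of a cullin-RING ubiquitin ligase, and acts on protein, so transcripts of the tagged genes do not check depletion. An untagged line given dTAG-13 was not used here, so loss of the tagged protein and other effects of the compound cannot be told apart. The sources used here do not say whether each line is 1 clone.

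The COP9 signalosome is a complex that removes the ubiquitin-like protein NEDD8 from cullins, and so resets cullin-RING ubiquitin ligases between rounds of substrate modification. Cops5 holds the metalloprotease site and pairs with the related but catalytically inactive Cops6, both of the MPN domain family. Gps1, Cops2, Cops3, Cops4, Cops7a, Cops7b and Cops8 belong to the PCI domain family that forms the scaffold, and Cops7a and Cops7b are paralogs that occupy the same position in alternative forms of the complex.

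GABPA binds DNA at ETS sites with a GGAA core, and the 7-base string CCGGAAG, or CTTCCGG on the other strand, was searched in RefSeq promoter windows (build GRCm38.p6, from 250 bases before to 50 bases after each start). The 2 strings share the core CCGG, so a match on one strand can overlap a match on the other. Windows were matched by symbol for 8 of the 9 genes, and none was matched for Cops5. Cops7a, whose RNA changed most, is shown first with its 250 upstream bases at chr6:124965513-124965762 (GRCm38.p6, minus strand), with the match in capitals.
Cops7a: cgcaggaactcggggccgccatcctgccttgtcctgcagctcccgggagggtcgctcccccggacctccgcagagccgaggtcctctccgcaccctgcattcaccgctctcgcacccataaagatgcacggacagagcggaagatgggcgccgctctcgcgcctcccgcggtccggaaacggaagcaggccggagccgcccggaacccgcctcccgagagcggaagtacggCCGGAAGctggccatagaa

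A match was present in windows of 5 of the 8 genes. The 30 bases around each are given on the gene's strand, so that genes that did and did not pass the RNA-seq test can be compared. They lie at chr6:124965513-124965542 for Cops7a, chr11:120784262-120784291 for Gps1, chr11:59839905-59839934 for Cops3, chr2:125859073-125859102 for Cops2 and chr1:90603286-90603315 for Cops8, all in GRCm38.p6, with the match in capitals.
Cops7a site: cggaagtacggCCGGAAGctggccatagaa
Gps1 site: gacgcgccgccCCGGAAGcgaacgtcgccg
Cops3 site: aggggacctgaCTTCCGGcgactagcggaa
Cops2 site: tcctggagagaCCGGAAGacgaggagactc
Cops8 site: gcagccgaaccCTTCCGGatcgcagggctc

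The match began 19 bases before the start in Cops7a and 9 bases before it in Cops2. Cops7a has a second window, with its start at position 124965266, that held no match. The match of the other Cops7a window lies just upstream of this second window, outside the bases searched. In Gps1 it began 3 bases after the start of 1 window, which is the same site that lies 227 bases before the start of a second window. In Cops3 and Cops8 it lay on the opposite strand, 156 and 128 bases before the start. No match was found in the windows of Cops4, Cops6 and Cops7b. Of all 32851 windows 8.86% held a match, and by symbol the share was 18.9% of the 11322 genes tested in RNA-seq that had a window. Among those tested genes the share was 39.8% of the genes that fell with dTAG-13 in the GABPA line, 9.61% of those that rose and 13.8% of those not called. Cops2 and Cops8 held a match and were not called in RNA-seq of any line, while Cops7a, Gps1 and Cops3 held a match and fell in the GABPA line. In 12 h SLAM-seq Cops2 and Cops8 were called lower (log2 change -0.51 and -0.94), with limits given below. So were Cops4 and Cops6 (-0.63 and -0.64), which held no match.

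RNA-seq libraries held 15957952 to 32091571 estimated counts. SLAM-seq libraries held 11477034 to 30690961 reads, of which 5.06 to 14.1% were converted. The 6 embryonic stem cell markers summed to between 3646 and 4690 CPM (counts scaled to a common library size) across RNA-seq libraries, and the 5 fibroblast feeder markers to between 3.90 and 9.94 CPM. In the GABPA line the stem cell markers summed to 4545 to 4690 CPM with dTAG-13 and 4378 to 4456 CPM with DMSO, and the feeder markers to 4.78 to 5.76 CPM with dTAG-13 and 3.90 to 4.93 CPM with DMSO. In 12 h SLAM-seq the feeder sums were 2.27 to 5.54 CPM with dTAG-13 and 0.924 to 1.35 CPM with DMSO. Among the feeder markers, Postn reached at most 0.120 CPM, Dcn 0.248 CPM, Col1a2 0.681 CPM, Col1a1 4.46 CPM and Thy1 5.19 CPM in RNA-seq. In SLAM-seq Dcn reached at most 5.92 CPM. The 4 trophectoderm markers summed to 24.5 to 27.5 CPM with dTAG-13 and 44.9 to 47.1 CPM with DMSO in RNA-seq of the GABPA line, where 1 of the 3 markers tested, Eomes, fell (log2 change -1.01, edgeR adjusted p = 4.75e-07). Primitive endoderm markers summed to 4.83 to 5.88 CPM with dTAG-13 and 4.04 to 4.84 CPM with DMSO there. By the same test, 2 of 6 stem cell markers rose and 1, Nanog, fell (log2 change -0.34), and 1 of 3 feeder markers tested rose. Of 4 primitive endoderm markers tested, 1 rose and 1 fell. Of all genes tested in that comparison, 24.6% rose and 21.9% fell. In 12 h SLAM-seq the stem cell markers summed to 2239 to 2255 CPM with dTAG-13 and 2464 to 2768 CPM with DMSO, and the trophectoderm markers to 8.50 to 14.4 CPM with dTAG-13 and 13.9 to 19.4 CPM with DMSO. The part of these differences in the results was not tested. In these bulk samples, fewer expressing cells and less RNA per cell cannot be told apart. The 12 h SLAM-seq dTAG-13 libraries stood apart from the other SLAM-seq libraries in the share of their highest genes and in genes detected. Their 20 highest genes held 13.6 and 16.6% of all reads, against 5.87 and 5.88% in 12 h DMSO and at most 10.4% in any other SLAM-seq library. They had 33420 and 31725 genes with at least 5 reads, against 24251 and 24586 in 12 h DMSO. Their multimapping reads were 7.20 and 9.06%, against 3.92 and 4.55% in 12 h DMSO and 7.97 and 7.33% at 4 h of dTAG-13. The 12 h DMSO libraries were the lowest of all SLAM-seq libraries in multimapping and in the share of the highest genes. For the 9 members, calls at 12 h of SLAM-seq are therefore set beside RNA-seq at 12 h and given again without each of the 12 h libraries.

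The first comparison asked what 12 h of dTAG-13 did to these genes in the GABPA line. Cops7a fell to a small fraction of its level, Gps1, Cops3 and Cops5 fell less, and Cops2, Cops4, Cops6, Cops7b and Cops8 did not pass the test. Thus 4 of 9 members were lower, in a comparison in which 21.9% of the 16396 genes tested fell and 24.6% rose (edgeR quasi-likelihood test, Benjamini-Hochberg adjusted p under 0.05). The median log2 change of the 9 members was -0.13, and that of all genes was 0.06.

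Cops7a, a PCI scaffold subunit, had 21.2 and 19.0 CPM with dTAG-13, against 266 and 279 CPM with DMSO. The groups did not overlap, and each dTAG-13 library lay far below both DMSO libraries. The log2 change was -3.76 ± 0.08 (SE, n = 2 against 2, edgeR adjusted p = 4.72e-15), that is, 7.38% of the DMSO level. Its p was the smallest of the 16396 genes.

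Gps1, a PCI subunit, had 58.9 and 65.3 CPM with dTAG-13, against 164 and 174 CPM with DMSO. These groups did not overlap either, and the log2 change was -1.44 ± 0.07 (SE, edgeR adjusted p = 1.73e-11). Cops3, another PCI subunit, had 73.8 and 83.1 CPM with dTAG-13, against 134 and 122 CPM with DMSO. All dTAG-13 libraries were lower, with a log2 change of -0.71 ± 0.08 (SE, edgeR adjusted p = 1.06e-06).

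Cops5, the catalytic subunit, had 92.0 and 101 CPM with dTAG-13, against 131 and 130 CPM with DMSO. Its change was smaller, -0.43 ± 0.07 on the log2 scale (SE, edgeR adjusted p = 3.55e-05), with no overlap between the groups. Its MPN partner Cops6 had 154 and 154 CPM with dTAG-13, against 169 and 167 CPM with DMSO. Both Cops6 dTAG-13 libraries were lower, but the log2 change of -0.13 (95% interval -0.25 to -0.003) had an edgeR adjusted p of 0.0891 and was not called.

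For the other 4 members the intervals bound what the libraries could hide. The log2 change was -0.08 for Cops2 (95% interval -0.28 to 0.12), -0.05 for Cops4 (-0.20 to 0.10) and -0.01 for Cops8 (-0.16 to 0.13). Cops7b, the paralog of Cops7a, had 45.4 and 43.2 CPM with dTAG-13, against 43.2 and 41.3 CPM with DMSO. Its log2 change was 0.07 (95% interval -0.10 to 0.24, edgeR adjusted p = 0.504). None of these 4 was called under any alternative to the RNA-seq test in this line.

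**Figure D1:**
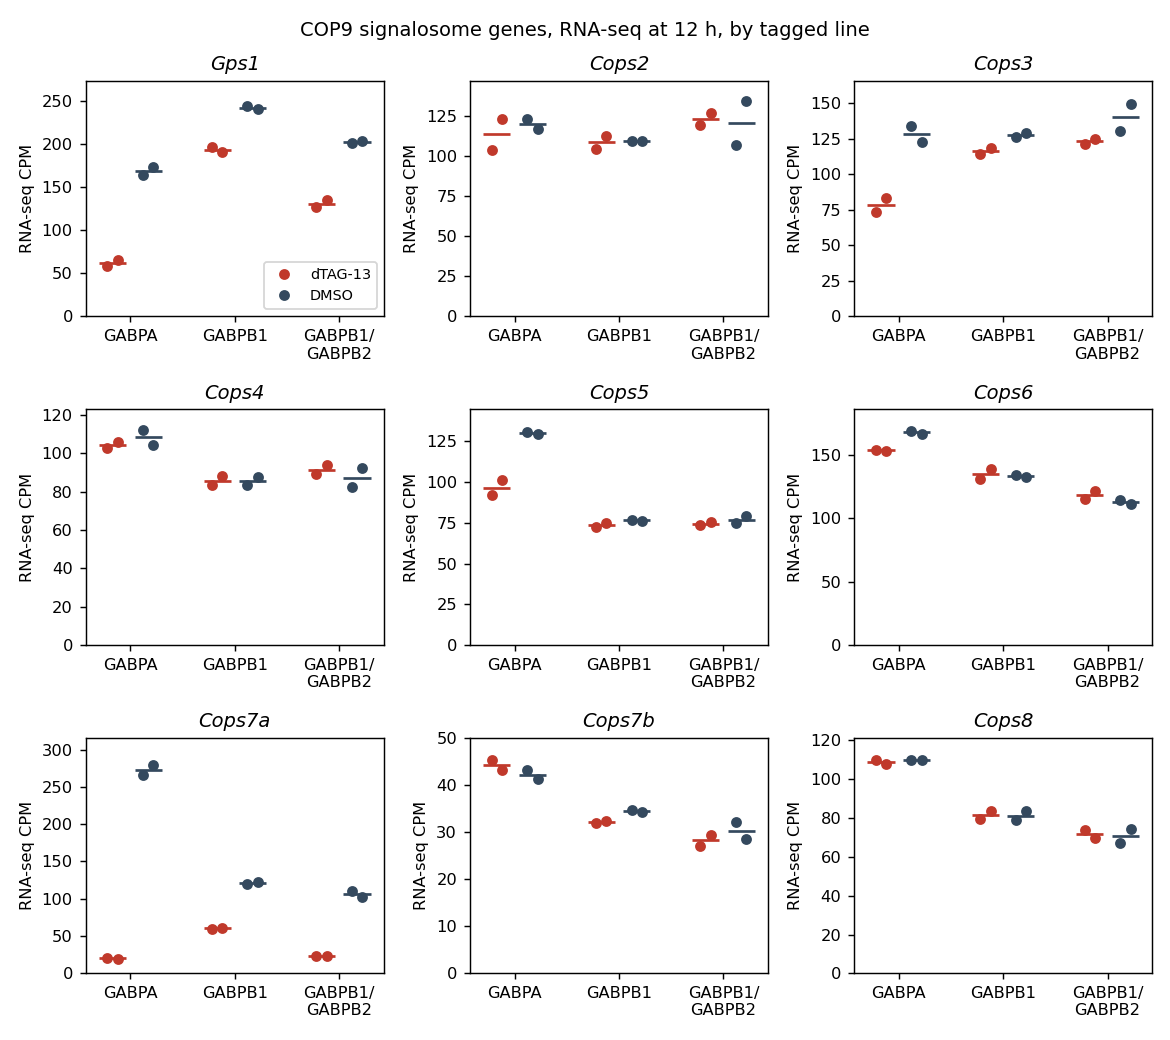
RNA-seq level in CPM (vertical axis, from 0) of the 9 genes in each library at 12 h, by tagged line (horizontal axis), dTAG-13 in red at the left and DMSO in dark at the right of each pair. Each point is 1 library and each bar the mean of 2. Cops7a sits at 19.0 to 21.2 CPM with dTAG-13 in the GABPA line, against 266 to 279 CPM with DMSO.

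The next comparison asked whether loss of the partner subunits moved the same genes. In the GABPB1/GABPB2 line and in the GABPB1 line, Cops7a and Gps1 fell and the other 7 members were not called. The share of all 16396 tested genes that fell was 9.26% in the GABPB1/GABPB2 line and 5.46% in the GABPB1 line. The median log2 change of the 9 members was -0.04 in the GABPB1/GABPB2 line and -0.06 in the GABPB1 line, against 0.01 and -0.005 for all genes.

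Cops7a in the GABPB1/GABPB2 line had 23.7 and 23.2 CPM with dTAG-13, against 110 and 103 CPM with DMSO. This was a log2 change of -2.18 ± 0.07 (SE, edgeR adjusted p = 1.22e-11), the second smallest p of all genes. In the GABPB1 line it had 59.5 and 61.1 CPM with dTAG-13, against 119 and 123 CPM with DMSO. That log2 change was -1.01 ± 0.07 (SE, edgeR adjusted p = 1.06e-07), at rank 6 of all genes by p, and the groups did not overlap in either line.

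Gps1 in the GABPB1/GABPB2 line had 126 and 135 CPM with dTAG-13, against 201 and 204 CPM with DMSO, a log2 change of -0.63 ± 0.06 (SE, edgeR adjusted p = 1.84e-06). In the GABPB1 line it had 196 and 190 CPM with dTAG-13, against 243 and 240 CPM with DMSO. The change of -0.32 ± 0.06 (SE, edgeR adjusted p = 0.00302) was lost without DMSO replicate 1 (edgeR adjusted p = 0.0589), without DMSO replicate 2 (0.0542) or without dTAG-13 replicate 2 (0.0755). Cops3 had a log2 change of -0.19 in the GABPB1/GABPB2 line (edgeR adjusted p = 0.129) and -0.13 in the GABPB1 line (edgeR adjusted p = 0.357). Without DMSO replicate 1 of the GABPB1/GABPB2 line, Cops3 was called there (-0.28, edgeR adjusted p = 0.0169). With the 4 libraries of the comparison fitted alone, it was called in the GABPB1 line (-0.12, edgeR adjusted p = 0.0254).

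The catalytic subunit Cops5 had a log2 change of -0.04 in the GABPB1/GABPB2 line (95% interval -0.18 to 0.10) and -0.06 in the GABPB1 line (95% interval -0.19 to 0.08). Cops7b had -0.11 (95% interval -0.28 to 0.07) and -0.10 (95% interval -0.27 to 0.06) in those lines. For Cops2, Cops4, Cops6 and Cops8 the 8 log2 changes in those lines ran from -0.01 to 0.07, and none was called.

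**Figure D2:**
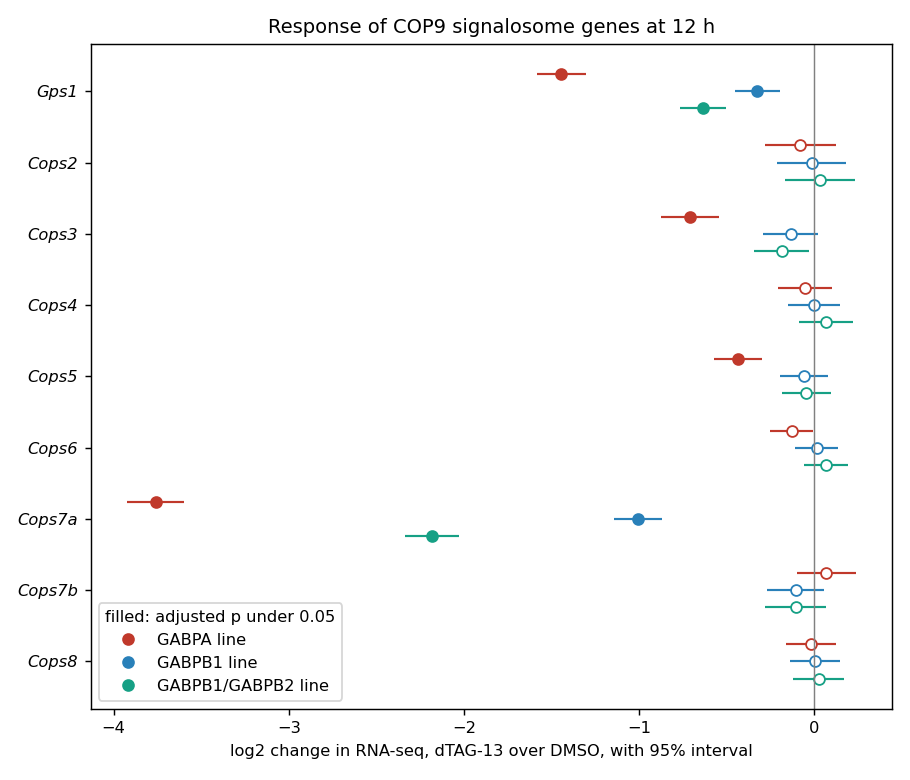
Log2 change in RNA-seq, dTAG-13 over DMSO at 12 h (horizontal axis), for each gene (vertical axis) in the GABPA line (red), the GABPB1 line (blue) and the GABPB1/GABPB2 line (green). Points are estimates with 95% intervals, filled where the edgeR adjusted p was under 0.05. Cops7a lies at -3.76, -1.01 and -2.18 in the 3 lines, and the values for Cops2, Cops4 and Cops8 lie near 0 in each.

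Whether the responses differed between lines was tested as the difference of 2 log2 changes in the same fit. The Cops7a response in the GABPA line was lower than that in the GABPB1 line (difference -2.75 ± 0.10, SE, edgeR adjusted p = 1.50e-11) and than that in the GABPB1/GABPB2 line (-1.58 ± 0.11, SE, edgeR adjusted p = 3.07e-08). It was also lower in the GABPB1/GABPB2 line than in the GABPB1 line (-1.18 ± 0.10, SE, edgeR adjusted p = 3.45e-06). The order of the 3 Cops7a responses was thus separated at each step. The lines differed in their DMSO levels too: Cops7a averaged 264 ± 8.00 TPM (transcript abundance scaled for length and library size, SD, n = 2) with DMSO in the GABPA line, 122 ± 5.62 TPM in the GABPB1/GABPB2 line and 134 ± 1.70 TPM in the GABPB1 line. With dTAG-13 it averaged 19.3 ± 1.66, 27.5 ± 0.35 and 70.2 ± 1.35 TPM in those lines, and the part of the unequal starting levels in the unequal changes was not tested.

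For Gps1 the GABPA response was lower than the GABPB1 response (difference -1.12 ± 0.09, SE, edgeR adjusted p = 6.95e-08) and than the GABPB1/GABPB2 response (-0.81 ± 0.09, SE, edgeR adjusted p = 6.00e-06). The GABPB1/GABPB2 and GABPB1 responses of Gps1 had a difference of -0.31 (95% interval -0.49 to -0.12), which did not pass (edgeR adjusted p = 0.156). Cops3 and Cops5 fell further in the GABPA line than in either other line. Their differences were -0.57 for Cops3 and -0.38 for Cops5 against the GABPB1 line, and -0.52 and -0.39 against the GABPB1/GABPB2 line (edgeR adjusted p at most 0.00602). Against a background of 13.3% of genes lower in the GABPA than in the GABPB1 response, 10.7% lower than in the GABPB1/GABPB2 response and 0.927% lower in the GABPB1/GABPB2 than in the GABPB1 response, the members counted 4, 4 and 1 of 9. Comparisons that share a line use its libraries more than once.

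Levels per length, in TPM, put Cops7a first among the 9 genes with DMSO in the GABPA line and last with dTAG-13. With dTAG-13 the order was Cops6 (132 TPM), Cops4 (87.3), Cops5 (83.9), Cops3 (70.7), Cops8 (67.3), Cops2 (62.4), Gps1 (47.0), Cops7b (27.03) and Cops7a (19.3). With DMSO it was Cops7a (264 TPM), Cops6 (147), Gps1 (133), Cops3 (117), Cops5 (115), Cops4 (92.0), Cops8 (69.1), Cops2 (66.7) and Cops7b (26.6). Neighbours whose 2 libraries overlapped were Cops4 and Cops5, Cops3 and Cops8, and Cops8 and Cops2 with dTAG-13, and Cops3 and Cops5, and Cops8 and Cops2 with DMSO.

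In the other lines Cops7a held a middle rank with DMSO, the fourth in both. In the GABPB1/GABPB2 line with dTAG-13 it was the eighth, at 27.5 TPM against 22.0 TPM for Cops7b. In the GABPB1 line with dTAG-13 it was the seventh, at 70.2 TPM, where its libraries overlapped those of Cops2 at 71.8 TPM. Gps1 was the highest of the 9 with DMSO in both lines, at 200 TPM in the GABPB1/GABPB2 line and 230 TPM in the GABPB1 line. With dTAG-13 Gps1 was the third in the GABPB1/GABPB2 line, at 128 TPM, and the first in the GABPB1 line, at 188 TPM.

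The summed level of the Cops7a and Cops7b paralogs was 48.2 and 44.4 TPM with dTAG-13 in the GABPA line, against 285 and 295 TPM with DMSO. Cops7a made up 42.4 and 40.8% of this sum with dTAG-13, against 90.5 and 91.2% with DMSO. In the GABPB1/GABPB2 line its share was 56.8 and 54.3% with dTAG-13, against 83.3 and 84.1% with DMSO, and in the GABPB1 line it was 73.5 and 74.1% with dTAG-13, against 83.4 and 83.9% with DMSO. In every line both dTAG-13 shares lay below both DMSO shares, and Cops7a was called in every line and Cops7b in none.

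Across the 12 RNA-seq libraries, the genes whose log2 CPM correlated most with Cops7a among 9194 well-expressed genes were Nubp1 (Pearson r = 0.995), Ccdc9 (0.995), Tbrg1 (0.994), Klhdc2 (0.993) and E2f4 (0.991). These values describe 6 groups of 2 libraries that share lines and treatments, and no p is given.

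New RNA was then followed over time in the GABPA line. Cops7a was lower at every time, Gps1 from 2 h, and the other members were first called at 12 h, apart from Cops7b, which was called at no time. One member was called at 1 h, 2 at 2 h, 2 at 4 h and 8 at 12 h. The shares of the 15887 tested genes that fell were 1.72, 3.21, 3.91 and 18.3% at those times, and 12.3% rose at 12 h.

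At 1 h Cops7a had 40.1 and 44.1 CPM of converted reads with dTAG-13, against 101 and 85.6 CPM with DMSO. The groups did not overlap, and the log2 change was -1.15 ± 0.26 (SE, edgeR adjusted p = 0.0173). This rests on 42 to 96 converted reads per library. The call was lost without DMSO replicate 1 (-1.01, edgeR adjusted p = 0.182), without dTAG-13 replicate 1 (-1.06, 0.259) or without dTAG-13 replicate 2 (-1.22, 0.0978), with the direction kept. Counting all reads in place of converted reads, an alternative chosen after seeing the data, Cops7a had a log2 change of 0.06 ± 0.18 at 1 h (SE, edgeR adjusted p = 1.0).

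At 2 h Cops7a had 36.8 and 19.3 CPM of converted reads with dTAG-13, and at 4 h 17.8 and 27.8 CPM, against 109 and 86.2 CPM in the DMSO group that both times share. Every dTAG-13 library was below both DMSO libraries. The log2 change was -1.78 ± 0.25 at 2 h (SE, edgeR adjusted p = 7.51e-05) and -2.06 ± 0.27 at 4 h (SE, edgeR adjusted p = 1.96e-05). In all reads the change was -0.12 ± 0.19 at 2 h and -0.84 ± 0.19 at 4 h (SE), and only the 4 h value was called (edgeR adjusted p = 0.0242).

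At 12 h Cops7a had 12.5 and 9.07 CPM of converted reads with dTAG-13, against 252 and 229 CPM with DMSO. The log2 change was -4.41 ± 0.25 (SE, edgeR adjusted p = 7.79e-12), from 52 and 16 converted reads with dTAG-13. It was between -4.66 and -4.20 with any 1 of the 12 h libraries left out, and RNA-seq at 12 h gave -3.76. The 12 h response was lower than the 1 h response (difference -3.26 ± 0.37, SE, edgeR adjusted p = 1.20e-05), while 4.7% of all genes were lower in that difference. With DMSO, the converted share of Cops7a reads averaged 2.46% at 1 h and 9.62% at 12 h. The part of unequal conversion in the 12 h minus 1 h difference of any member was not tested.

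Gps1 had 13.5 and 19.97 CPM of converted reads at 2 h and 16.8 and 16.1 CPM at 4 h with dTAG-13, against 36.9 and 31.6 CPM in the shared DMSO group. The log2 change was -1.04 ± 0.28 at 2 h (SE, edgeR adjusted p = 0.0343) and -1.06 ± 0.29 at 4 h (SE, edgeR adjusted p = 0.0367). Both calls were lost whichever of the 4 libraries of the comparison was left out. The 2 h change then ran from -1.33 to -0.79 (edgeR adjusted p 0.0534 to 0.435) and the 4 h change from -1.19 to -0.94 (0.0585 to 0.231). With DESeq2 the adjusted p was 0.150 at 2 h and 0.139 at 4 h.

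Of all Gps1 reads in SLAM-seq, 63.6 to 82.3% were multimapping, against at most 2.21% in any other member, so its SLAM-seq values are uncertain. It had 14 to 127 converted reads per library. At 1 h its log2 change was -0.31 (95% interval -1.01 to 0.40), and at 12 h it was -2.07 ± 0.25 (SE, edgeR adjusted p = 9.61e-07), with 13.7 and 11.9 CPM in dTAG-13 libraries, against 52.2 and 57.3 CPM in DMSO libraries. The 12 h response was lower than the 1 h response (difference -1.76 ± 0.43, SE, edgeR adjusted p = 0.0130). That difference was lost without 1 h DMSO replicate 2 (edgeR adjusted p = 0.0526) or without 1 h dTAG-13 replicate 1 (0.0937).

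Cops3 had 124 and 115 CPM of converted reads at 12 h with dTAG-13, against 358 and 339 CPM with DMSO. This was a log2 change of -1.54 ± 0.18 (SE, edgeR adjusted p = 3.74e-07), and it was called without any 1 of the 12 h libraries. At 1, 2 and 4 h its log2 change was -0.42 (95% interval -0.80 to -0.04), -0.34 (95% interval -0.71 to 0.03) and -0.44 (95% interval -0.83 to -0.06), none of them called. The 12 h response was lower than the 1 h response (difference -1.12 ± 0.25, SE, edgeR adjusted p = 0.00840), a call lost without 1 h dTAG-13 replicate 2 (edgeR adjusted p = 0.0890).

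Cops8, a PCI subunit, had 168 and 108 CPM of converted reads at 12 h with dTAG-13, against 273 and 266 CPM with DMSO, a log2 change of -0.94 ± 0.19 (SE, edgeR adjusted p = 4.40e-04). Cops5 had 89.3 and 100 CPM with dTAG-13, against 178 and 142 CPM with DMSO, and a change of -0.76 ± 0.19 (SE, edgeR adjusted p = 0.00309). The remaining called members had log2 changes of -0.51 (Cops2), -0.63 (Cops4) and -0.64 (Cops6), with edgeR adjusted p at most 0.0151. Cops7b had 39.7 and 25.0 CPM with dTAG-13, against 37.9 and 43.8 CPM with DMSO, so its groups overlapped. Its log2 change was -0.29 (95% interval -0.87 to 0.29).

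The smaller 12 h calls depended on single libraries. Of the 8 members, 4 remained without 12 h DMSO replicate 1, 6 without DMSO replicate 2, 5 without dTAG-13 replicate 1 and 5 without dTAG-13 replicate 2. Gps1, Cops3, Cops7a and Cops8 kept the call in all 4 cases, and Cops2 and Cops6 lost it in all 4. Cops4 lost it without DMSO replicate 1 or dTAG-13 replicate 2, and Cops5 without DMSO replicate 1 or dTAG-13 replicate 1. In all reads at 12 h all 9 members were lower, with log2 changes from -4.89 (Cops7a) to -0.82 (Cops7b), but 7449 genes fell and 8032 rose in that count, and RNA-seq at 12 h called Cops2, Cops4, Cops6, Cops7b and Cops8 neither way. The part of the 12 h library differences given above in these values was not tested.

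**Figure D3:**
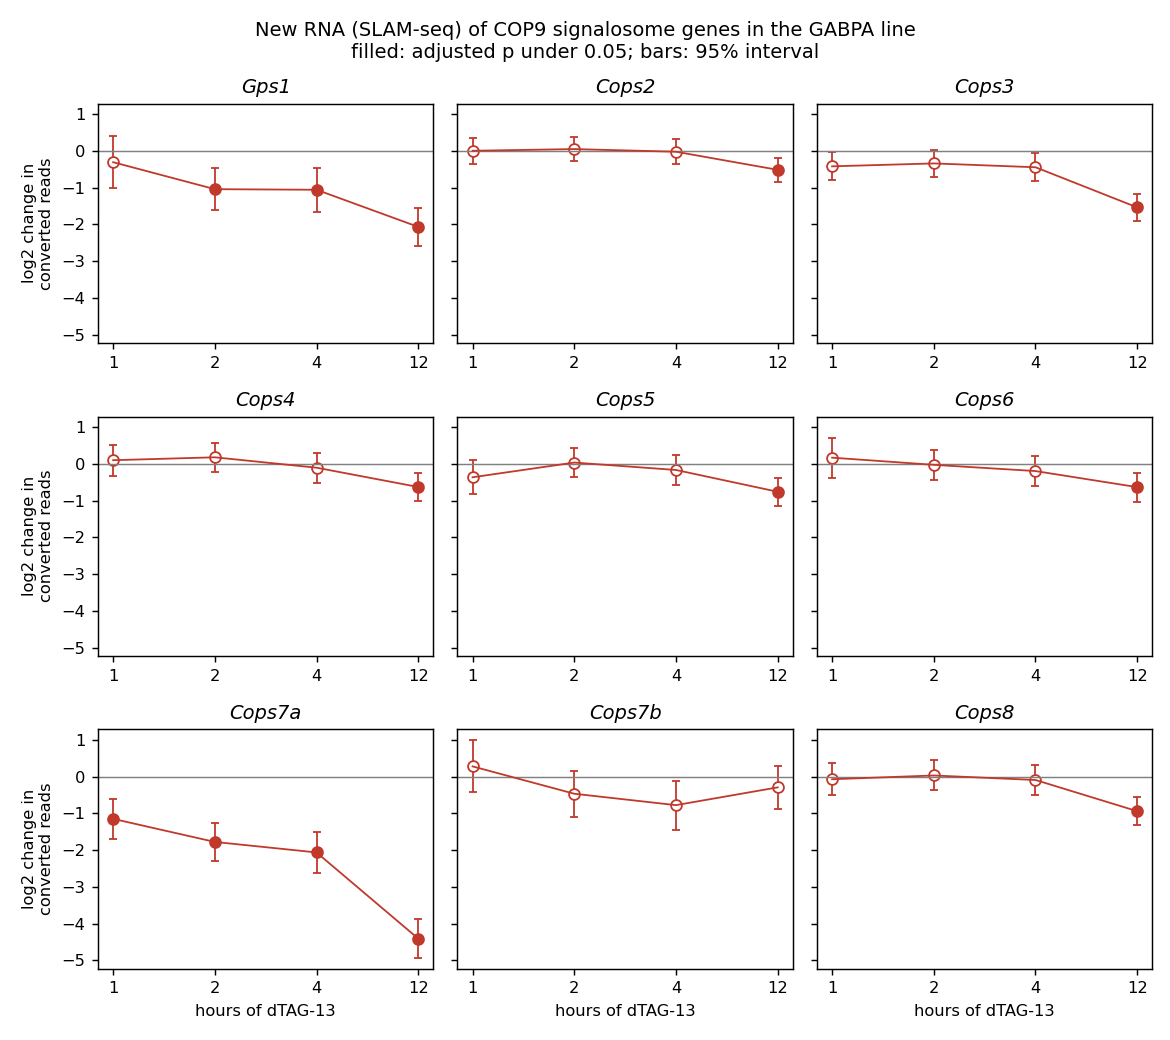
Log2 change in converted reads, dTAG-13 over DMSO (vertical axis), after 1, 2, 4 and 12 h of dTAG-13 (horizontal axis, evenly spaced) in the GABPA line, one panel for each gene. Points are estimates with 95% intervals, filled where the edgeR adjusted p was under 0.05, and 2 h and 4 h share DMSO libraries. Cops7a is filled at every time and runs from -1.15 to -4.41, and Cops7b is open at every time.

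The dTAG-13 libraries at 4 h and 2 h were also compared directly, since their DMSO libraries are shared. No member differed, and of the 15887 genes 0.0% were called by edgeR, 0 were called by DESeq2, and 657 had an unadjusted edgeR p under 0.05. Among members no unadjusted p was under 0.05. The Cops7a difference was -0.29 (95% interval -0.92 to 0.35), so changes between the 2 times within that interval were not resolved at this depth.

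The converted share of a gene's reads sets new RNA against all RNA of the same gene within a library. For Cops7a it was 1.02 and 0.900% with dTAG-13 at 1 h, against 2.25 and 2.67% with DMSO. It was 2.20 and 1.43% at 2 h and 1.83 and 2.78% at 4 h with dTAG-13, against 6.65 and 6.80% in their shared DMSO group. At 12 h the shares were 10.4 and 10.0% with dTAG-13, against 10.0 and 9.20% with DMSO. The Cops7a groups were thus apart up to 4 h and lay close together at 12 h, when converted and all reads were both low with dTAG-13. The sources used here give no labelling time, and DMSO shares of Cops7a were higher at later times, so shares are set against the DMSO group of the same time only. Conversions in unlabelled RNA were not estimated here, so their part in the lowest shares and in the 1 h change was not tested. For Gps1 the share was 3.48 and 4.96% at 2 h and 4.93 and 4.66% at 4 h with dTAG-13, against 8.80 and 7.52% with DMSO. For Cops2, which was not called at these times, it was 15.3 and 14.7% at 2 h with dTAG-13, against 15.9 and 14.7% with DMSO. At 12 h the mean share was 8.39% with dTAG-13 against 11.9% with DMSO for Gps1. The members first called at 12 h had higher means with dTAG-13. These were 20.8 against 19.5% (Cops2), 16.9 against 15.2% (Cops3) and 13.8 against 11.1% (Cops4). Cops5 had 12.4 against 11.4%, Cops6 4.89 against 4.07% and Cops8 25.6 against 22.3%. Libraries overlapped for Cops2 and Cops5. For all members first called at 12 h, the calls were thus not matched by a lower converted share.

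**Figure D4:**
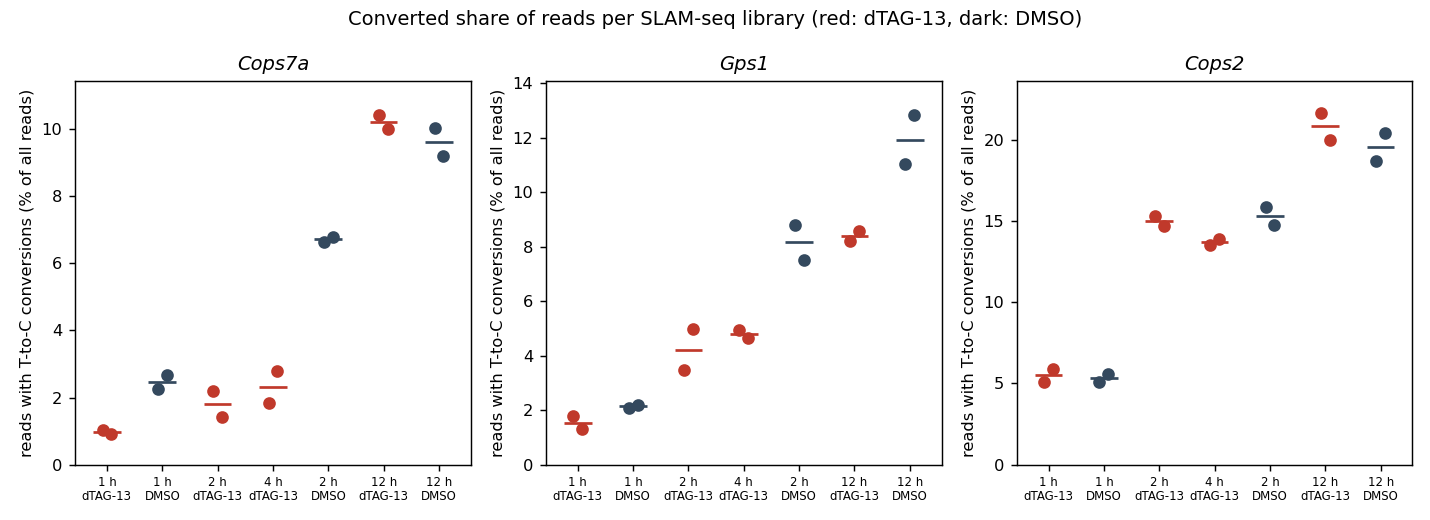
Reads with T-to-C conversions as a percentage of all reads of Cops7a, Gps1 and Cops2 (vertical axes, each from 0 with its own range) in each SLAM-seq library, by time and treatment (horizontal axis). Points are libraries, bars are means of 2, dTAG-13 is red and DMSO dark. Cops7a lies at 0.900 to 2.78% with dTAG-13 up to 4 h, against 2.25 to 6.80% with DMSO, and near 10% in 3 of 4 libraries at 12 h.

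Cops9, the small additional subunit that is not among the 9 genes, fell with dTAG-13 in the GABPA line to 65.0 and 69.7 TPM, against 186 and 181 TPM with DMSO (log2 change -1.41 ± 0.17, SE, edgeR adjusted p = 2.20e-06). It also fell in the GABPB1/GABPB2 line (-0.87, edgeR adjusted p = 0.00257), and its change of -0.10 in the GABPB1 line was not called. In SLAM-seq it was called at 4 h (-1.04) and 12 h (-1.80). For Cops9 and the gene lists that follow, 12 h SLAM-seq values were not recomputed without single libraries.

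Genes of the cullin and NEDD8 system, on which the complex acts, moved in both directions in the GABPA line. Of 26 core genes of neddylation and cullin ligases, 6 rose and 6 fell in RNA-seq, close to the shares of all genes, and the list's median log2 change was 0.05. Dcun1d5, a cofactor of cullin neddylation, fell by 2.33 on the log2 scale (edgeR adjusted p = 2.31e-12), and Ube2f, a NEDD8-conjugating enzyme, by 0.95 (edgeR adjusted p = 4.42e-07). Cul4a, a cullin scaffold, rose by 0.43 (edgeR adjusted p = 3.65e-05), and Dcun1d3, of the same family as Dcun1d5, rose by 0.65 (edgeR adjusted p = 1.86e-05). In the GABPB1/GABPB2 line, where 9.26% of all genes fell, 1 of the 26 was called, Dcun1d5 (-0.94, edgeR adjusted p = 4.19e-07). In the GABPB1 line, where 5.46% of all genes fell, none was called by edgeR, with 4 at an unadjusted p under 0.05. In SLAM-seq at 12 h 5 of the 26 fell, Dcun1d5 (-2.48) among them, where 18.3% of all genes fell, so the count was near the share of all genes.

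Of 13 cullin substrate receptors, 4 rose and 2 fell in the GABPA line, where 24.6% of all genes rose and 21.9% fell, so these counts too were near the shares of all genes. Fbxw7, the receptor for phosphorylated substrates such as cyclin E, rose by 1.26 on the log2 scale (edgeR adjusted p = 6.39e-10). At 12 h of SLAM-seq 2 of the 13 rose, Fbxw7 (0.83) among them, and 1 fell, Fbxo5 (-1.26), whose RNA-seq change was -0.41. Of all genes 12.3% rose and 18.3% fell at that time of SLAM-seq.

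The proteasome lid and eIF3 are the complexes that share the PCI and MPN families with the signalosome. The 9 lid genes also include Sem1, which is of neither family. Sem1 had 162 and 160 TPM with dTAG-13, against 127 and 125 TPM with DMSO, in RNA-seq of the GABPA line. In the GABPA line 5 of 9 lid genes fell and 1 rose, with a median log2 change of -0.19, and 5 of 8 eIF3 genes fell and 1 rose, with a median of -0.73. Of all genes 21.9% fell and 24.6% rose in that comparison, with a median of 0.06. Psmd6, a PCI subunit of the lid, fell by 2.05 on the log2 scale (edgeR adjusted p = 1.10e-12), and Eif3c, a PCI subunit of the translation initiation factor, by 1.10 (edgeR adjusted p = 3.08e-11). In the GABPB1/GABPB2 line 1 lid gene and 3 eIF3 genes fell, where 9.26% of all genes fell. In the GABPB1 line 1 lid gene and 2 eIF3 genes fell, where 5.46% of all genes fell. The signalosome median in the GABPA line, -0.13, lay between that of all genes and that of the eIF3 list, while its lowest member, Cops7a at -3.76, lay below the lowest lid gene (-2.05) and the lowest eIF3 gene (-1.15).

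In the mm39 annotation of the deposited tables, Cops7a spans chr6:124935376-124942501 on the minus strand, Gps1 chr11:120675098-120679928 on the plus strand, Cops3 chr11:59708621-59730664 on the minus strand and Cops5 chr1:10094826-10108393 on the minus strand. Genes on the opposite strand overlap Cops3 by up to 697 bases (Gm16062), Cops5 by 182 bases (Cspp1), Cops6 by 64 bases (Mcm7) and Cops2 by 31 bases (Galk2). Across RNA-seq libraries Mcm7 had 6091 to 15765 counts, against 2032 to 4604 for Cops6. Cspp1 had 359 to 1621 counts, Galk2 77 to 752 and Gm16062 6 to 34. An unnamed gene that overlaps Cops7a by 103 bases had 0 counts in all RNA-seq libraries. The sources used here do not state how strand was handled in counting, so reads in those overlaps cannot be assigned with certainty.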

How the data were processed

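RNA-seq (12 libraries) and SLAM-seq (14 libraries) were grouped by the labels. The deposited RNA-seq tables hold RSEM estimated counts (expected counts) and TPM per gene. Per the submitters' processing notes, the tools include Trim Galore 0.6.7, STAR 2.7.11a and RSEM 1.3.1 with build mm39. Per the file headers, slamdunk 0.4.3 made the SLAM-seq counts of all, converted and multimapping reads per gene interval.

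Estimated counts were rounded. Each assay was fitted once over all its groups with edgeR 4.0.16 (TMM scaling, filterByExpr, quasi-likelihood test), which left 16396 genes in RNA-seq and 15887 in SLAM-seq and pools the spread of duplicates over groups. Calls used a Benjamini-Hochberg adjusted p under 0.05, and CPM values are TMM-scaled. With 2 libraries in a group, precision rests on the pooled spread (biological coefficient of variation 0.0608 in RNA-seq and 0.143 in SLAM-seq). No replicate pair agreed within sampling noise (chi-square per degree of freedom 1.96 to 16.1). The highest value was that of the DMSO pair of the GABPB1/GABPB2 line, and the other RNA-seq pairs had 3.12 to 6.56. The pooled spread may therefore understate the spread of that DMSO pair. The scripts were tested on simulated counts. Alternatives were DESeq2 1.42.0, its size factors, no filter, a stricter one (average log2 CPM of at least 3), a replicate block, the libraries of a comparison alone, all reads as library size and leaving out each library.

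The members, gene lists and tests were chosen with earlier results of these data known. Named genes are all 9 members, up to 4 called genes with the smallest p in each list, and the 5 genes most correlated with Cops7a. Promoter windows are from RefSeq (GRCm38.p6), and their coordinates were not converted to mm39.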

Additional observations from a re-analysis of the deposited data

Results flagged for a closer look

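A response to dTAG-13 differed between lines or times, by a test of the difference itself, in 12 results (edgeR quasi-likelihood test, adjusted p under 0.05 over all genes, 2 libraries in each group). Groups of 2 libraries were not tested for outlying libraries.

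Between the GABPA and GABPB1 responses, the difference in log2 change was -2.75 for Cops7a, -1.12 for Gps1, -0.57 for Cops3 and -0.38 for Cops5. Between the GABPA and GABPB1/GABPB2 responses, it was -1.58 for Cops7a, -0.81 for Gps1, -0.52 for Cops3 and -0.39 for Cops5. Between the GABPB1/GABPB2 and GABPB1 responses, it was -1.18 for Cops7a. Each of these 9 differences was called in every alternative run. Between the 12 h and 1 h responses in SLAM-seq, the difference was -3.26 for Cops7a, -1.76 for Gps1 and -1.12 for Cops3, and the last 2 were lost without some single libraries. Converted shares of these genes with DMSO were higher at 12 h than at 1 h, and the part of this in the differences was not tested.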

How the results depend on the processing

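In RNA-seq the 4 calls in the GABPA line were made under every alternative, and so were those of Cops7a in all 3 lines. Leaving out 1 library each time gave 1 to 2 called members in the GABPB1 line, 2 to 3 in the GABPB1/GABPB2 line, 4 for GABPA minus GABPB1, 4 to 5 for GABPA minus GABPB1/GABPB2 and 1 for GABPB1/GABPB2 minus GABPB1. In SLAM-seq it gave 0 to 1 at 1 h, 1 at 2 h, 1 at 4 h, 4 to 6 at 12 h, 2 to 4 for 12 h minus 1 h and 0 for 4 h minus 2 h. A lone library left in a group was assumed to vary like the other groups. In SLAM-seq at 2 h, 1 member was called with DESeq2, with no low-count filter and with the libraries of the comparison alone, and at 4 h 1 was called with DESeq2 and with those libraries alone. For 12 h minus 1 h, 5 were called with the libraries of the comparison alone. Counting all reads in place of converted reads, an alternative chosen after seeing the data, called 0 members at 1 h, 0 at 2 h, 1 at 4 h and 9 for 12 h minus 1 h, and gave Cops7a a log2 change of 0.065 at 1 h. All reads as library size also called Cops3 at 4 h (-0.70, edgeR adjusted p = 0.0418) and lost it for 12 h minus 1 h (-0.99, 0.0519). The cause of these shifts was not tested. All reads as library size moved the median log2 change of all genes to -0.10 at 1 h, -0.20 at 2 h and -0.23 at 4 h.

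Replicate numbers did not pair the samples in most pairs of groups. Correlations of same-numbered deviations ran from -0.11 to 0.12 over 15 pairs of RNA-seq groups, 1 of them over 0.1. Over 21 pairs of SLAM-seq groups they ran from -0.09 to 0.29, 2 of them over 0.1, so some SLAM-seq groups may share a replicate effect. The fit with a replicate block called 4, 2 and 2 members in the GABPA, GABPB1 and GABPB1/GABPB2 lines, 4, 4 and 1 for the differences between lines, 1, 2, 2 and 8 at 1, 2, 4 and 12 h of SLAM-seq, 3 for 12 h minus 1 h and 0 for 4 h minus 2 h, the same counts as without it. Of 1332 values of single members under an alternative, 1197 kept direction and side of the threshold, 38 lost the call with the direction kept and 16 gained it. Another 80 turned sign without being called either way. The remaining 1, Cops7a at 1 h in all reads (log2 change 0.065), turned sign and lost the call. Depth limits the SLAM-seq values of members with few converted reads per library, such as Gps1 (14 to 127), Cops7a (16 to 546) and Cops7b (23 to 165).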
